A study of Homo sapiens with 2 samples.

Results

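Repeat family entries were the rows whose gene type was repeat in the cluster tables of a PAR-CLIP experiment on ZC3H7A and ZC3H7B, and each row carried the name of a repeat family or subfamily in place of a gene. There were 430 such entries among the 10606 entries of either table, 255 of 8486 in the ZC3H7A table and 392 of 9566 in the ZC3H7B table. In PAR-CLIP, cells are fed 4-thiouridine, RNA is crosslinked to protein with long-wave ultraviolet light, and the crosslinked base is read as a T-to-C conversion in overlapping reads that are grouped into clusters. Both libraries came from HEK293 cells (an established human embryonic kidney line) that overexpressed the Flag/HA-tagged protein, ZC3H7A in one library and ZC3H7B in the other. The protocols in the labels name HEK293 and Flp-In T-REx 293 cells, induction for 24 h with 1 µg/mL doxycycline and 16 h with 100 µM 4-thiouridine, and irradiation at 365 nm. Each protein had 1 library and none served as a control, so values have no replicate check and ratios describe these libraries only. Overexpression of a tagged protein was shared by both. The number of cell clones was not given in the sources used here, and the identity of the cells was not checked, because the tables record bound RNA and not expression.

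Interspersed repeats make up much of the human genome and are transcribed mainly as parts of other transcripts, in introns and 3' UTRs. SINEs are short and have been copied with the proteins of LINEs, a class that includes L1 and L2. They include Alu, which descends from the 7SL RNA of the signal recognition particle, and the older MIR. LTR elements descend from retroviruses and have an internal part, whose entries end in -int, between flanking long terminal repeats. DNA transposons such as Tigger, Charlie and many MER families moved as DNA. MIR is used here for this SINE family, mammalian-wide interspersed repeat, and not for a microRNA.

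The only sequences that the tables held were the repeat units of the simple repeats, which name those entries. They matter here because the method reads U. There were 24 such entries, and 10 had T in the unit and in its reverse complement, 7 in the unit alone and 6 in the reverse complement alone. The strand of an entry was not given, so the last 6, among them (A)n, (CA)n and (GAA)n, can carry U only when read from the other strand. The unit of (TA)n reads TA on both strands. Only (CGG)n, whose reverse complement is CCG, had T on neither strand, and it still had 3 clusters and 77 reads with a median T-to-C fraction of 1.00 in the ZC3H7A library, and 1 cluster and 5 reads at 1.00 in the ZC3H7B library. Where the converted bases of its clusters lay was not given. The unit (CCCCAG)n has T only in its reverse complement, CTGGGG, and its fraction was 0.84 over 56 reads and 0.58 over 33 reads.

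Repeat entries were a small part of both tables and a slightly larger part of the ZC3H7B table. They held 47036 of 3839781 reads in the ZC3H7A library, or 1.22% (exact 95% interval 1.21 to 1.24%), and 35973 of 2446331 in the ZC3H7B library, or 1.47% (1.46 to 1.49%). Counted in distinct reads, which take copies of a read as 1, the shares were 1.24% (1.20 to 1.28%) and 1.57% (1.55 to 1.59%). Counted in clusters they were 1.69% (892 clusters) and 2.22% (2268 clusters). The share was thus higher in the ZC3H7B library by each measure, with a log2 ratio of shares between 0.26 and 0.39. These intervals cover counting error only, and PCR copies make those on reads too narrow even for that. Reads per distinct read of the repeat entries averaged 12.5 for ZC3H7A and 1.86 for ZC3H7B, close to the 12.6 and 1.99 of all other rows.

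The other checks that touch these values are of the whole tables. The tagged gene had more reads in its own library for both proteins (82704 against 158 reads for ZC3H7A, and 3768 against 1362 for ZC3H7B). None of the clusters of repeat entries was counted in a transcript region, so the tables do not say whether a repeat lay in an intron, a UTR or between genes. How a cluster in a repeat inside a gene was divided between the gene's row and the repeat's row is not given in the sources used here.

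A typical repeat entry was thinner than a typical gene. The median entry had 72 reads and 2 clusters in the ZC3H7A library, where the median of the other rows was 135 reads and 3 clusters. In the ZC3H7B library it had 24 reads and 2 clusters, against 82 reads and 6 clusters. A single cluster made up 116 of 255 repeat entries (45.5%) and 145 of 392 (37.0%), against 25.3% and 17.6% of other rows. Rows with 1 cluster carried like numbers of reads whatever their type, with medians of 29 reads for repeats and 27 for other rows with ZC3H7A and 7 for each with ZC3H7B. Over all clusters the repeat entries averaged 52.7 and 15.9 reads per cluster, against 73.1 and 24.1. The lowest read sum of a repeat entry was 5 in both tables.

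The Alu and L1 groups, defined by the prefix of the name, led both tables. Alu entries held 10367 reads (192 clusters) with ZC3H7A and 6630 reads (450 clusters) with ZC3H7B, and L1 entries held 10128 reads in 186 clusters and 6844 reads in 456 clusters. Together they took 43.6% and 37.5% of the repeat reads, and 42.4% and 39.9% of the repeat clusters. Of the other named prefixes, MIR held 4813 and 3644 reads, the mixed MER families 4282 and 4258, and MLT, a mammalian LTR group, 3393 and 3330, so MIR lay above MER with ZC3H7A and below it with ZC3H7B. LTR-prefixed entries, the most numerous after L1 and MER with 65 names, had only 1901 and 1191 reads. Alu and L1 were the largest in both libraries, as the plot of shares by prefix shows, but Alu came before L1 with ZC3H7A and after it with ZC3H7B. Copy number and length of the families in the genome were not used, so these levels are not enrichments.

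**Figure D1:**
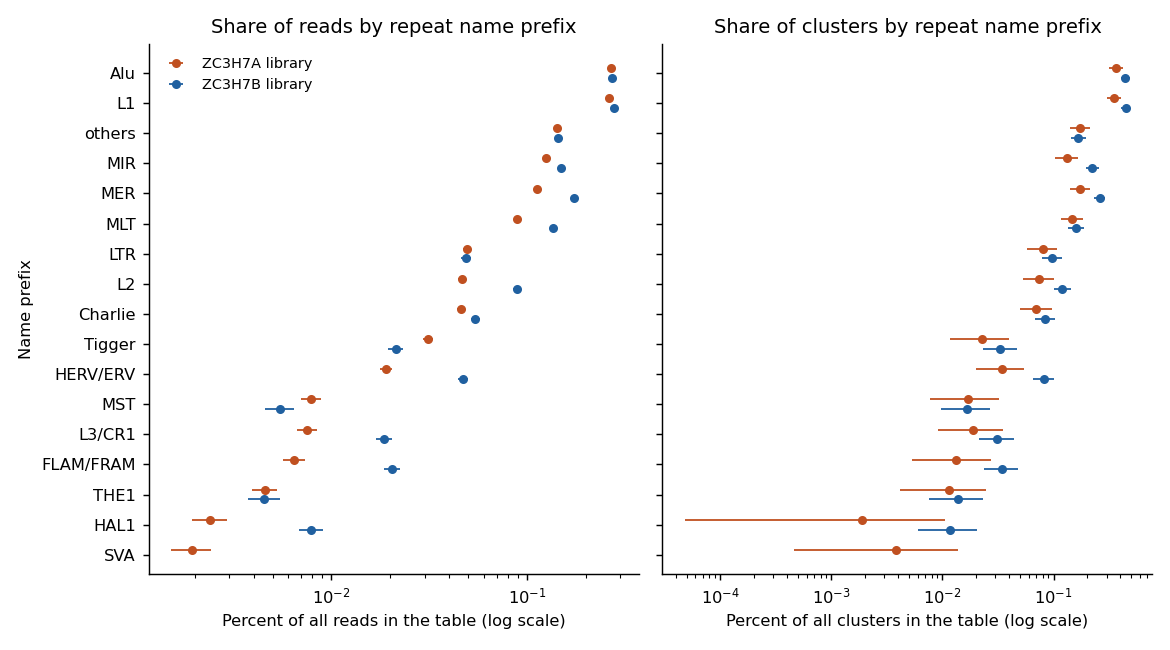
Share of all reads (left) and of all clusters (right) of each table held by repeat entries of each name prefix, in percent on log axes, with exact 95% intervals for counting error; 1 library per protein. Alu and L1 lie highest in both libraries, HERV/ERV and FLAM/FRAM lie to the right in the ZC3H7B library by both measures, and SVA has a value only in the ZC3H7A library.

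Set against the totals of the tables, the groups did not shift together. Of 17 groups, 10 had a ratio of read shares, ZC3H7B over ZC3H7A, whose log2 interval lay above 0. By distinct reads 9 did so, and by clusters 7. By reads, the median of all entries lies above 0 on this scale. The entry MIR stood at -0.47 on it, and at -0.62 where that median was set to 0. A read interval above 0 thus does not place a group above a typical entry. SVA, not listed for ZC3H7B, had no ratio. The log2 ratio of shares, ZC3H7B over ZC3H7A, was 1.30 (1.16 to 1.43) for the HERV/ERV prefixes, 1.66 (1.44 to 1.88) for the Alu monomers FLAM, FRAM and FAM, 0.93 (0.84 to 1.02) for L2 and 0.64 (0.58 to 0.70) for MER. These 4 also had intervals above 0 by distinct reads and by clusters. The same held for L1 and for MIR, which stood at 0.25 by reads and 1.09 by distinct reads. Alu stood at 0.01 (-0.04 to 0.05) by reads and at 0.28 (0.03 to 0.53) by clusters, and L1 at 0.08 (0.04 to 0.13) and 0.34 (0.09 to 0.60). LTR stood at -0.02 (-0.13 to 0.08). Tigger and MST stood below 0, at -0.54 (-0.69 to -0.39) and -0.54 (-0.84 to -0.24), but their intervals held 0 by distinct reads and by clusters. Tigger stood at 0.06 (-0.15 to 0.26) without Tigger7, and L3/CR1, at 1.32 (1.10 to 1.53), turned to -1.41 without L3. In those groups a single entry thus set the direction.

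**Figure D2:**
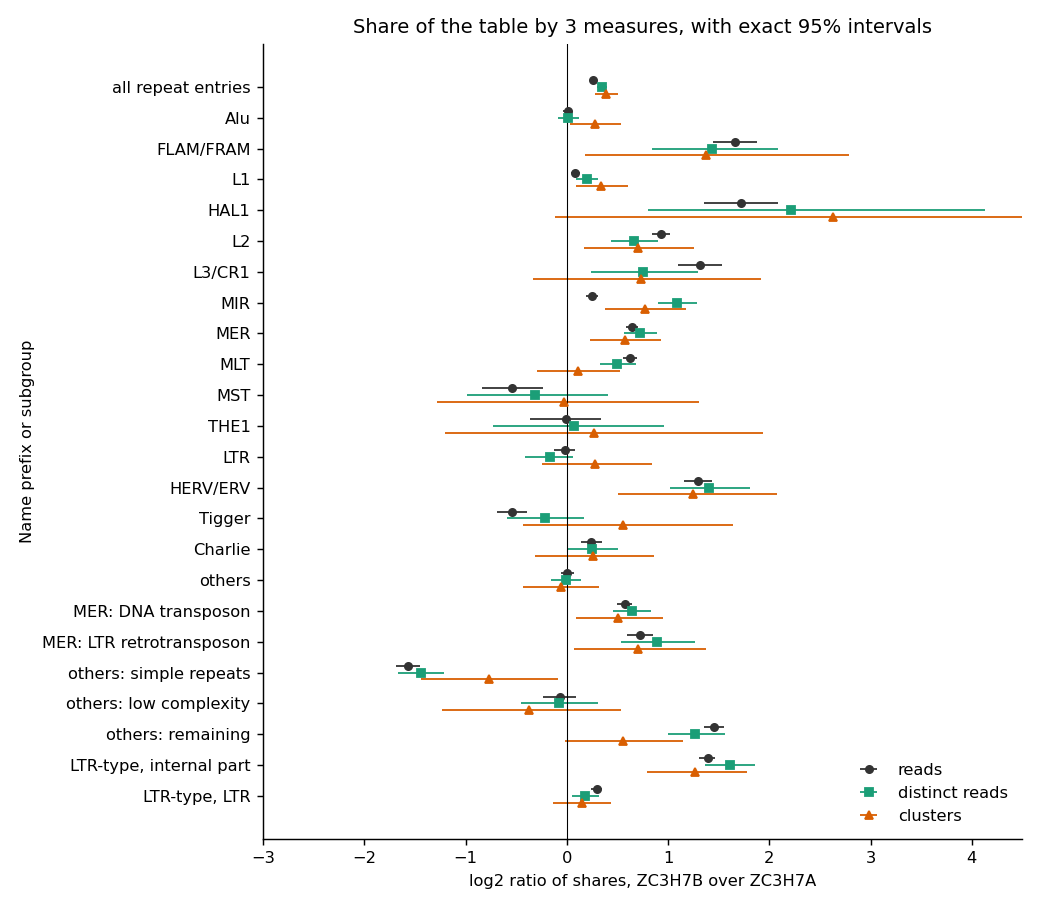
Log2 ratio of the share of the table, ZC3H7B over ZC3H7A, by reads (circles), distinct reads (squares) and clusters (triangles), for each name prefix and for subgroups, with exact 95% intervals for counting error; 1 library per protein. HERV/ERV, FLAM/FRAM, L2, MER, MIR, L1 and the internal parts of LTR-type elements are among those above 0 by all 3 measures. Simple repeats lie below 0, and the cluster interval of HAL1 runs on to 8.05 beyond the axis.

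Most families of the ZC3H7A table were found with both proteins. Of the 255 entries of the ZC3H7A table, 217 (85.1%) were also in the ZC3H7B table, where they made up 55.4% of the 392 entries. For rows that are no repeat these shares were 87.8% and 78.8%, so the share of the ZC3H7B table was lower among repeats. The 38 entries listed only for ZC3H7A had a median of 27.5 reads and held 3.45% of its repeat reads. The 175 listed only for ZC3H7B had a median of 11 reads and held 9.17%. Absence from a table means that no cluster was called there, and the family may still have had reads. Among entries with at least 20 reads, 160 were shared, or 70.8% of 226 and 74.4% of 215, against 79.8% and 84.6% of other rows. Across the 217 shared entries the log2 reads of the libraries correlated with Pearson's r of 0.64 and Spearman's rho of 0.62, against 0.70 and 0.71 over 7229 other rows. Number of clusters gave 0.75 and 0.70, against 0.69 and 0.70 over the other rows. These are correlations across families within 1 pair of libraries, and families differ in copy number, so they are given as a description.

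**Figure D3:**
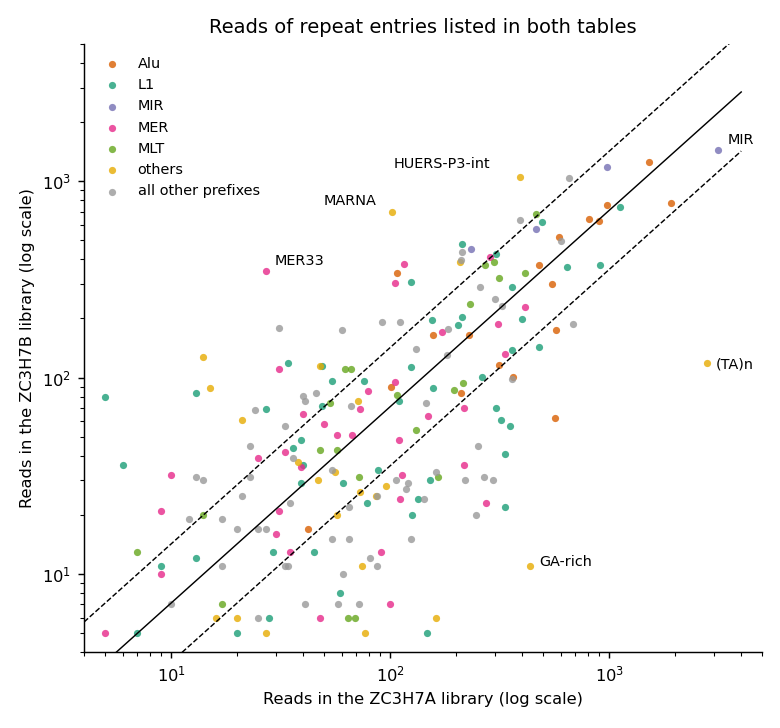
Reads of each of the 217 repeat entries listed in both tables, ZC3H7A on the x axis and ZC3H7B on the y axis, both log scaled, coloured by name prefix. The solid line marks the median ratio of all entries of the tables and the dashed lines 2-fold either side; (TA)n and GA-rich lie far below, and MER33, MARNA and HUERS-P3-int far above.

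For single entries the log2 ratio of reads was scaled so that the median of all 7392 entries with at least 20 reads summed, genes included, was 0. The share ratios of groups were scaled to table totals instead. On that scale each entry's ratio is higher by the same amount, with the entry MIR at -0.47 in place of -0.62. A median entry thus lies above 0 there, and the 2 kinds of ratio have different zero points. Of 213 repeat entries compared, the whole exact interval lay beyond 2-fold for 42 towards the ZC3H7A library, and 18.1% of all entries did so. It lay beyond 2-fold for 30 towards the ZC3H7B library, where the share of all entries was also 18.1%. The repeat counts come to 19.7% and 14.1%, shares close to those of all entries. The median ratio of repeat entries was 0.02 (quartiles -1.30 and 0.93), and that of all entries 0 (quartiles -1.06 and 1.02). By distinct reads 18 entries lay towards ZC3H7A (8.45%, with 10.1% of all entries) and 8 towards ZC3H7B (3.76%, with 7.22% of all entries). All of the 18 and 7 of the 8 were also beyond 2-fold by reads. Many of the entries beyond 2-fold rested on little in the other library: 16 of the 42 had 1 cluster in the ZC3H7B library and 15 of the 30 had 1 cluster in the ZC3H7A library. Single clusters were common in general. Of all 217 repeat entries listed in both tables, 43 had 1 cluster with ZC3H7B and 85 had 1 cluster with ZC3H7A.

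**Figure D4:**
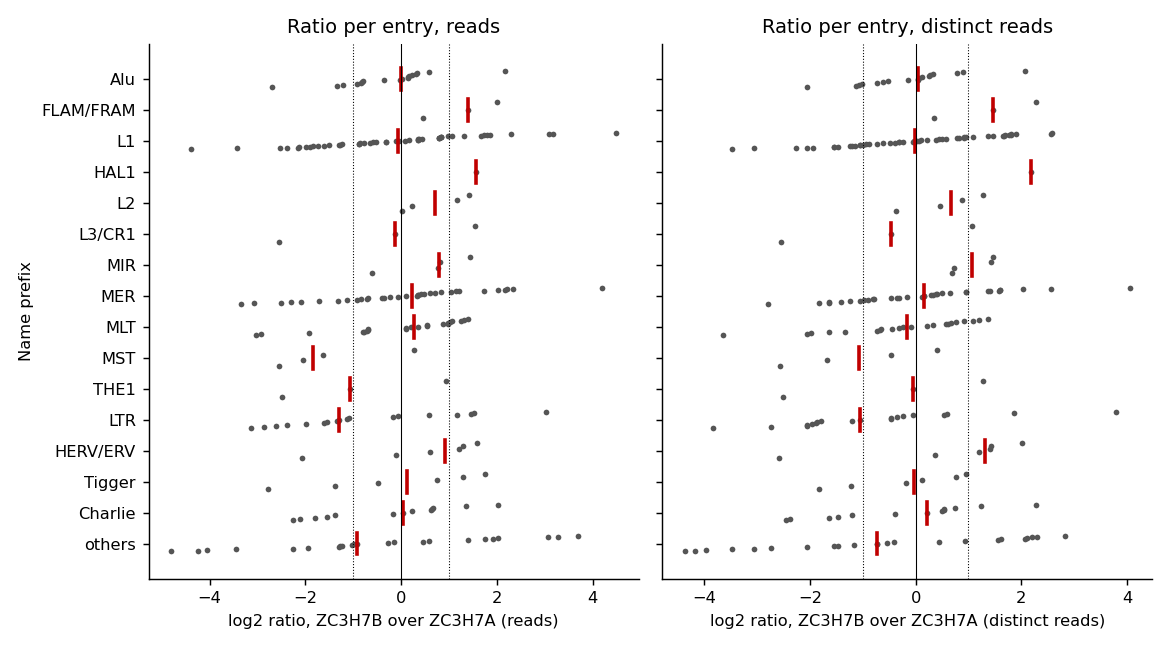
Log2 ratio, ZC3H7B over ZC3H7A, of each repeat entry with at least 20 reads summed, by reads (left) and by distinct reads (right), scaled to the median of all entries of the tables. Dots are entries, red bars are group medians and dotted lines mark 2-fold; entries of most groups lie on both sides of 0, and the medians of MST and LTR lie below it in both panels.

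Within Alu, the 3 age classes differed little in share. AluJ, the oldest, had 4488 reads with ZC3H7A and 2873 with ZC3H7B, AluS 5331 and 3436, and AluY, the youngest, 548 and 321. The log2 ratios of shares were 0.01 (-0.06 to 0.07), 0.02 (-0.05 to 0.08) and -0.12 (-0.32 to 0.08), and each interval holds 0. AluJb led Alu in the ZC3H7A library with 1903 reads in 37 clusters, against 776 in 65 clusters with ZC3H7B. AluJr led in the ZC3H7B library with 1248 reads in 51 clusters, against 1511 in 20 clusters with ZC3H7A. Subfamilies differed more than the classes. AluSc had 567 reads against 62, a log2 ratio of -2.70 (-3.10 to -2.32), or -2.05 by distinct reads, with 37 distinct reads in each library. AluSq2 went the other way, with 107 against 339 reads and a ratio of 2.16 (1.84 to 2.49), or 2.07 by distinct reads. AluSg, at -1.35, was also beyond 2-fold, but not so by distinct reads. Of 18 Alu entries compared, 2 thus lay beyond 2-fold towards ZC3H7A and 1 towards ZC3H7B, beside 18.1% of all entries in each direction. Alu subfamilies differ at few positions, so reads are uncertain between them.

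The relatives of Alu stood apart from Alu itself. The monomers held 248 reads (7 clusters) with ZC3H7A and 499 reads (35 clusters) with ZC3H7B. FLAM_A had 183 and 177 reads, FRAM 41 and 76, and FLAM_C, with 178 reads in 8 clusters, was listed only for ZC3H7B. FAM, with 24 and 68 reads, lay beyond 2-fold by reads (2.00) but not by distinct reads, and FLAM_A and FRAM by neither. Over the entries listed in both tables the group's ratio was 1.02 (0.78 to 1.27), and without FLAM_A it was 2.96 (2.57 to 3.37). The 7SL RNA row, which is typed as a signal recognition particle RNA and not as a repeat, had 1817 reads in 16 clusters with ZC3H7A and 84 reads in 10 clusters with ZC3H7B. Its log2 ratio was -3.94 (-4.27 to -3.62), or -3.77 by distinct reads, far from the 0.00 median of the Alu entries. SVA_D, a composite element that carries Alu-like sequence, had 74 reads in 2 clusters and was listed only for ZC3H7A.

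Most L1 reads lay in entries of the older L1M subfamilies. The handling of reads that map to several copies was not given, and copy number was not used. These sums therefore do not rank the subfamilies by binding. The primate entries L1HS and L1PA, of which L1HS was not listed, held 534 reads with ZC3H7A and 463 with ZC3H7B, while L1ME, L1MC and L1M1 to L1M7 held 3183 and 1947, 1799 and 1898, and 2500 and 1293. L1M5 led in both libraries, with 1122 reads in 15 clusters and 737 reads in 44 clusters, and its ratio was -0.11 (-0.25 to 0.02). L1ME4a followed in the ZC3H7A library with 906 reads, against 374, and L1MC4a had 493 and 619. The subfamilies differed in direction by reads. The share ratio was -1.38 (-1.62 to -1.16) for L1MA and -0.73 (-1.19 to -0.26) by distinct reads, but 0.73 (0.63 to 0.82) for L1MC and 0.54 (0.39 to 0.69) for L1MB. By clusters all 3 intervals held 0, at -0.26 (-1.33 to 0.86), 0.10 (-0.44 to 0.66) and 0.74 (-0.06 to 1.62). L1MA10 alone, with 341 of the 791 L1MA reads, moved the L1MA ratio, which was -0.57 (-0.82 to -0.32) without it, and L1MB without its leading entry L1MB8 stood at 1.16 (0.97 to 1.35).

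Of 50 L1 entries compared, 10 lay beyond 2-fold towards ZC3H7A and 8 towards ZC3H7B, shares near the 18.1% of all entries in each direction. By distinct reads 4 and 0 did so, where all entries gave 10.1% and 7.22%. L1MA5A had 147 reads in 2 clusters against 5 reads in 1 cluster, a log2 ratio of -4.38 (-6.03 to -3.13). L1M2 had 335 reads in 4 clusters against 22 in 2, a ratio of -3.43 (-4.13 to -2.81). Both stayed beyond 2-fold by distinct reads, at -3.47 and -3.05. In the other direction L1MB7 had 34 reads in 1 cluster against 118 in 15, a ratio of 2.29 (1.73 to 2.89). By mean reads per cluster L1MB7 stood at -0.64, so its higher sum with ZC3H7B came with more clusters, not with deeper ones. L1MA10, with 341 reads in 1 cluster, was the entry with the most reads that only the ZC3H7A table listed, and its T-to-C fraction of 0.56 was among the lowest.

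MIR itself was the entry with the most reads in both libraries, and its direction depended on what was counted. It had 3141 reads in 22 clusters with ZC3H7A and 1447 reads in 73 clusters with ZC3H7B, a log2 ratio of -0.62 (-0.71 to -0.53). Its distinct reads were 75 and 860, which gave a ratio of 1.47 (1.13 to 1.83) and put it beyond 2-fold on the other side. In the ZC3H7A library each of its distinct reads was counted 41.9 times, against 12.5 over all repeat entries, and its mean of 143 reads per cluster lay far above its median of 24. The reads of MIR in that library were therefore concentrated in few clusters and few distinct reads. The other 3 entries of the group had higher ratios, 0.76 (0.64 to 0.89) for MIRb, 0.80 (0.62 to 0.98) for MIRc and 1.44 (1.21 to 1.67) for MIR3. Without MIR the group's share ratio was 1.04 in place of 0.25 (0.95 to 1.14), close to the 1.09 (0.90 to 1.29) that distinct reads gave for the whole group.

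L2 and L3/CR1, LINEs about as old as MIR, also had larger shares with ZC3H7B. L2a had 651 reads in 18 clusters and 1039 reads in 62 clusters, a log2 ratio of 1.17 (1.03 to 1.31). L2b, with 210 and 395 reads, stood at 1.41 (1.16 to 1.65) and L2c, with 599 and 499, at 0.23 (0.06 to 0.41). L3 had 212 reads in 8 clusters and 437 in 30, a ratio of 1.54 (1.30 to 1.78). The ratios of L2a, L2b and L3 kept their sign by distinct reads, at 0.87, 1.27 and 1.06, but their intervals then reached below 2-fold. L3b, with 58 and 7 reads, lay on the other side at -2.56 (-3.93 to -1.42), and Plat_L3 had 17 and 11 reads. HAL1, an L1-related LINE, had 92 reads in 1 cluster and 193 in 12, a ratio of 1.56 (1.20 to 1.94), which became -1.04 by mean reads per cluster.

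Among LTR-type elements, the internal parts had a larger shift in share than the long terminal repeats. Entries ending in -int held 2129 reads in 43 clusters with ZC3H7A and 3544 reads in 201 clusters with ZC3H7B, a log2 share ratio of 1.39 (1.31 to 1.46), or 1.61 by distinct reads and 1.27 by clusters. Without HUERS-P3-int, the entry of this kind with the most reads, the ratio was 1.17 (1.08 to 1.26). The long terminal repeat entries of LTR, MLT, MST, THE1 and retroviral MER families stood at 0.30 (0.24 to 0.35) by reads and 0.15 (-0.14 to 0.44) by clusters. Over entries compared, the median ratio was 0.61 for 17 internal parts, of which 11 lay above 0, and -0.69 for 47 terminal repeats. Beyond 2-fold were 2 internal parts towards ZC3H7A and 3 towards ZC3H7B, and 11 and 0 terminal repeats, beside 18.1% of all entries in each direction. The count for internal parts is near that share. The split was made after the names of the entries had been seen.

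HUERS-P3-int, the internal part of an endogenous retrovirus, had 389 reads in 9 clusters and 1045 reads in 43 clusters, a log2 ratio of 1.92 (1.75 to 2.09), or 2.07 (1.54 to 2.64) by distinct reads. ERVL-E-int had 391 and 636 reads (1.20, 1.01 to 1.38) and ERVL-B4-int 111 and 192 (1.29, 0.94 to 1.64). LTR49-int had 31 reads in 1 cluster and 178 reads in 14 clusters, a ratio of 3.02 (2.46 to 3.62). MLT1F-int, among the 10 leading entries of the ZC3H7B library, had 462 and 680 reads. Its conversion was 0.74 and 0.87, where the lower quartiles of repeat entries were 1.00 and 0.89. HERVL-int went against this direction, with 142 and 24 reads and a ratio of -2.07 (-2.76 to -1.44). MER4-int also did, with 273 and 23 reads, but its 273 reads were made of 2 distinct reads in 1 cluster, and its ratio by distinct reads, -1.05, had an interval from -3.85 to 2.42. HERVS71-int (94 reads) and Harlequin-int (78 reads) were listed only for ZC3H7B.

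Terminal repeats that lay beyond 2-fold had more reads with ZC3H7A. LTR33C had 247 reads in 3 clusters against 20 in 1, a log2 ratio of -3.13 (-3.87 to -2.47). LTR42 had 267 against 31, and LTR33A_ 252 against 45, at -2.61 (-3.20 to -2.07) and -1.99 (-2.48 to -1.53). These 3 also lay beyond 2-fold by distinct reads, at -3.83, -2.05 and -1.96. LTR16B1, with 131 and 140 reads, stood at 0.59. The median over 19 LTR entries was -1.30. The summed share ratio, which has another zero point, was -0.02, and it also holds the 38 of 65 LTR names listed only for ZC3H7B. Of the names listed for ZC3H7B, 38 of 58 LTR names were listed only there. The same held for 175 of 392 repeat entries and 1945 of 9174 other rows. Over the entries listed in both tables the share ratio was -0.58. MSTB and THE1C, mammalian LTRs with 124 against 15 and 87 against 11 reads, stood at -2.55 and -2.49, while MSTD had 118 and 27 reads and THE1B 65 and 22. MSTD-int (62 reads) was listed only for ZC3H7B, and THE1A-int had 23 and 31 reads. MLT1A0, with 414 and 340 reads, and MLT1H, with 299 and 388, stood at 0.21 and 0.87.

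DNA transposons gave some of the largest single differences. MER33 had 27 reads in 1 cluster with ZC3H7A and 351 reads in 9 clusters with ZC3H7B, a log2 ratio of 4.20 (3.63 to 4.82), or 4.06 by distinct reads. MARNA, a mariner-type element, had 102 and 698 reads, a ratio of 3.27 (2.97 to 3.58), or 2.82 by distinct reads. Its reads lay in 3 and 5 clusters, so by clusters its ratio was -0.19, with a wide interval (-2.56 to 2.49). MER1B, with 116 and 381 reads, stood at 2.21 (1.91 to 2.52), and Charlie8, with 60 and 174, at 2.03 (1.60 to 2.48). Both kept intervals beyond 2-fold by distinct reads. MER58A (285 and 413 reads) and MER20 (412 and 229) stood at 1.03 and -0.35. MER131, of unassigned class, had 31 and 111 reads in 1 cluster each.

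Several others had more reads with ZC3H7A. MADE1, a short mariner-type element, had 161 reads in 3 clusters against 6 reads in 1 cluster, a ratio of -4.25 (-5.72 to -3.10), and MER53 had 100 against 7, each in 1 cluster. Tigger7 held 686 reads in a single cluster of 34 distinct reads, against 187 reads in 2 clusters, a ratio of -1.38 (-1.62 to -1.15). By clusters its ratio was 0.07, with a wide interval (-4.19 to 5.95). Tigger4a had 293 and 30 reads (-2.79, -3.39 to -2.25) and Tigger1 146 and 74. Charlie7a, with 360 and 98 reads, stood at -1.38 (-1.72 to -1.06), and Charlie1 and Charlie1a, with 302 and 251 and 258 and 288, were not beyond 2-fold. Of the 13 Charlie entries compared, 4 lay beyond 2-fold towards ZC3H7A and 1 towards ZC3H7B, beside 18.1% of all entries in each direction.

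Simple repeats had a larger share with ZC3H7A through 1 entry, (TA)n. The group held 3358 reads with ZC3H7A and 720 with ZC3H7B, and (TA)n made up 83.1% and 16.5% of these. It had 2792 reads in 23 clusters, second only to MIR, against 119 reads in 9 clusters, a log2 ratio of -4.06 (-4.33 to -3.79), with 205 against 76 distinct reads (-3.48, -3.88 to -3.10). Without (TA)n the share ratio of simple repeats turned from -1.57 to 0.74 (0.57 to 0.91). Among low-complexity entries, GA-rich had 434 reads in 6 clusters against 11 in 2, a ratio of -4.81 (-5.82 to -3.95), the lowest of all repeat entries compared. AT_rich went the other way with 209 and 389 reads (1.39).

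Stretches named for T alone lay with ZC3H7B. (T)n had 14 and 128 reads (3.69, 2.89 to 4.60) and T-rich 15 and 89 (3.06, 2.26 to 3.96). Both had 1 cluster with ZC3H7A, and by distinct reads their intervals, which began at 0.68, no longer lay beyond 2-fold. A-rich (98 reads), (TATAA)n (69 reads) and MamRep1879 (113 reads), an unclassified mammalian repeat, were listed only for ZC3H7A, and MER49 (118 reads) and MER21C (101 reads) only for ZC3H7B. ALR/Alpha, the alpha satellite of centromeres, had 1 cluster in each library, with 20 and 6 reads.

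Conversion was as high on repeats as on other rows. The median T-to-C fraction over entries was 1.00 with ZC3H7A and 0.97 with ZC3H7B, against 1.00 and 0.94 for other rows. A fraction of 1.00 was found for 195 of 255 repeat entries (76.5%) and 187 of 392 (47.7%), against 73.8% and 36.8% of other rows. Weighted by reads, the mean was 92.8% and 90.3% for repeats and 91.9% and 89.2% for other rows. Any threshold that the caller set on conversion is not given in the sources used here. Repeat entries held fewer distinct reads per cluster, 4.23 and 8.54 against 5.81 and 12.2, and the part of this in the fractions was not tested.

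Low conversion was rare among repeats and other rows alike: a fraction under 0.5 was found for 0.392% of repeat entries and 0.68% of other rows with ZC3H7A, and for 0.51% and 0.12% with ZC3H7B. A fraction under 0.5 was found for 1 entry of the ZC3H7A library, L1MD1, at 0.18 over 151 reads made of 3 distinct reads in 1 cluster. In the ZC3H7B library it was found for MLT1F2-int (0.42 over 19 reads) and (GGAA)n (0.49 over 39 reads). These 3 are named for their low values, which were seen first. Among the 217 entries listed in both tables, the fraction was lower with ZC3H7B for 103, higher for 37 and equal for 77. Among 7229 other rows it was lower with ZC3H7B for 62.3%, against 47.5% of the repeat entries.

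Genes whose proteins bind or silence repeat RNA were compared from a list of 33, of which 30 were in both tables. Beyond 2-fold were 6 towards ZC3H7A and 4 towards ZC3H7B, or 4 and 2 by distinct reads, and the median ratio was -0.01. With 18.1% of all entries beyond 2-fold in each direction by reads, and 10.1% and 7.22% by distinct reads, these counts do not set the list apart, and the genes below are single values. The highest towards ZC3H7A were SSB, which encodes the La protein that binds RNA polymerase III transcripts, with 1193 and 67 reads (-3.66, -4.04 to -3.30), the retrotransposon corepressor TRIM28 with 1594 and 208 (-2.44, -2.66 to -2.23), ATF7IP, a partner of the histone methyltransferase SETDB1, with 2675 and 370 (-2.36, -2.52 to -2.20), and SRP14, an Alu-binding subunit of the signal recognition particle, with 203 and 34 (-2.08, -2.65 to -1.55). Towards ZC3H7B lay MORC2 with 23 and 187 reads (3.52, 2.89 to 4.21) and FAM208A with 120 and 280 (1.72, 1.40 to 2.04), both of the machinery that silences young L1 copies, the antiviral protein gene ZC3HAV1 with 66 and 264 (2.49, 2.10 to 2.91), and SRP68 with 147 and 288 (1.47, 1.17 to 1.76). By distinct reads SRP14, ZC3HAV1 and SRP68 were not beyond 2-fold, and the 23 reads of MORC2 were 2 distinct reads in 1 cluster. Among the list's members with the most reads were MATR3 (9533 and 4013 reads, -0.75), HNRNPU (9313 and 1989, -1.73) and ADAR, the RNA editing enzyme (1971 and 1441, 0.04).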

How the data were processed

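Clusters of 1 PAR-CLIP library per protein were analysed, read as 50 bp single ends, with groups taken from the sample titles. The submitters' processing notes name STAR 2.5.2a, Bowtie, cutadapt and build hg19, without their roles. The cluster caller and the handling of multiply mapping reads were not given in the sources used here. Per the file headers, the authors' counts are clusters, reads and distinct reads summed over clusters; reads outside clusters are absent. A row's deposited fraction is its clusters' median T-to-C fraction. A deposited score, the sum of that fraction over clusters, was divided by the number of clusters for means; the median reads per cluster was read as a score too. Depth was 3839781 and 2446331 reads, and no molecular identifiers are described.

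Members were the rows typed repeat, grouped by name prefix. Prefixes outside the 16 named ones, such as HUERS and MARNA, went to others. MER families were classed as DNA or LTR elements from general knowledge. Members and lists were chosen with earlier results of these data known. The ratio of an entry used entries in both tables with at least 20 reads summed, with an exact binomial interval at 95%, and group ratios used shares of table totals. No p-value was computed. Named entries were the 10 with the most reads in each table, up to 10 beyond 2-fold in each direction with at least 100 reads summed, the 5 with the most reads listed in 1 table, and the 3 with the most reads in each group; of the gene list, the 4 with the most reads and up to 4 beyond 2-fold in each direction; subfamily leaders and others were added after their values were seen. Of these, 1 gene that this rule names is not reported here. On counts simulated for 7392 entries, 98 of 100 raised 4-fold, 76 of 97 lowered 4-fold and 0 of 7159 unchanged were called. The simulation held only the counting error that the interval assumes, without PCR copies or differences between libraries. It therefore checks the calculation and gives no error rate for these data. Alternatives were distinct reads, clusters, mean reads per cluster, totals or TMM scaling (edgeR 4.0.16, R 4.3.3), other minimums, missing entries at 0 and merged classes. Calculations used scipy 1.17.1, numpy 2.4.6 and pandas 2.3.3 in Python 3.11.15, and plots matplotlib 3.10.9. Sequences of interspersed repeats were not used here.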

Additional observations from a re-analysis of the deposited data

How the results depend on the processing

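No paired analysis was possible because each protein had 1 library. Counts of repeat entries beyond 2-fold moved with the measure: towards ZC3H7A 42 became 18 by distinct reads, 1 by clusters, 21 by mean reads per cluster and 73 with missing entries at 0, and towards ZC3H7B 30 became 8, 0, 19 and 75. The same measures gave 10.1%, 0.230%, 4.79% and 23.6% of all entries towards ZC3H7A, and 7.22%, 0.284%, 6.32% and 24.2% towards ZC3H7B. The 73 and 75 are of 289 repeat entries compared, and the counts by the other measures are of 213. Other scalings and minimums gave 36 to 43 and 27 to 34, with 184 to 217 repeat entries compared. Of all entries, these settings gave 15.6% to 19.3% towards ZC3H7A and 17.3% to 21.0% towards ZC3H7B. The log2 share ratio of all repeats, 0.26, was 0.35 by distinct reads, 0.39 by clusters, 0.18 over entries listed in both and 0.30 without MIR. The share was 1.69% by clusters for ZC3H7A, and 1.57% by distinct reads and 2.22% by clusters for ZC3H7B. The T-to-C fraction for ZC3H7A was 0.928 as a read-weighted mean, and for ZC3H7B 0.94 at 20 or more reads, 0.945 at 5 or more clusters and 0.903 as a read-weighted mean. Reversed by distinct reads was MIR (1.47). By clusters MARNA (-0.19), MER4-int (0.07), MER131 (-0.93), Tigger7 (0.07) and the Tigger group (0.55) changed sign, but each of these intervals held 0. Reversed by mean reads per cluster were L1MB7 (-0.64) and HAL1 (-1.04), while Charlie7a stood at 0.01 with an interval that held 0 (-0.33 to 0.34). Without the entry with the most reads, L3/CR1 (-1.41) and simple repeats (0.74) reversed, and Tigger stood at 0.06 (-0.15 to 0.26). Merged into classes MST stood at 0.54 and Tigger at 0.30. The causes were not tested. Simple repeats, internal parts and the alternatives for L1M subfamilies were added after the data were seen. Of the 35 named entries beyond 2-fold, 15 were no longer so by distinct reads, 21 by mean reads per cluster and 34 by clusters, where few clusters limit what can be told apart.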
